A study of Homo sapiens with 4 samples.

Results

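The genes that make, store, take up and break down catecholamines, with the granins that are packed beside the amines, were examined in SK-N-SH, an established human neuroblastoma cell line. The members were the 10 genes TH, DDC, DBH, SLC18A1, SLC18A2, SLC6A2, GCH1, MAOA, CHGA and CHGB, each matched to the count table by its symbol. A row was used for 9 of them, out of 24014 genes in the table, and TH was not analysed here. To ask what a gain of the long non-coding RNA AP1AR-DT does in these cells, RNA was sequenced from cells carrying a recombinant lentivirus with AP1AR-DT (AP1AR-DT_OE, 2 libraries) and from wild-type cells carrying the empty lentiviral vector (control, 2 libraries). All 4 libraries were thus of 1 established line, and all cells had received a lentivirus. The labels do not say whether the libraries of a group came from separate cultures, so p-values measure only the spread between these libraries, which may be technical. For AP1AR-DT_OE 2 the title names the RNA under a version suffix that differs from its other labels, and the title was followed.

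Noradrenaline is made from tyrosine in a chain of enzymes. Tyrosine hydroxylase (TH) makes DOPA with the cofactor tetrahydrobiopterin, whose synthesis starts with GCH1. DDC then makes dopamine, and DBH, an enzyme of the vesicle lumen, makes noradrenaline. The vesicular monoamine transporters SLC18A1 and SLC18A2 load the amines into vesicles, the plasma membrane transporter SLC6A2 takes noradrenaline back up, and monoamine oxidase A (MAOA), on the outer mitochondrial membrane, breaks the amines down. CHGA and CHGB are acidic granins of the same dense-core granules. Neuroblastoma arises from the sympathoadrenal lineage, in which this set of genes is expressed.

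The libraries held between 21988065 and 26184599 counts. AP1AR-DT itself, read as a check of the labels, was at 3 and 18 counts without the overexpression and at 680 and 1065 with it (Log2FC = 6.63, SE = 0.64, DESeq2 Wald test, adjusted p = 3.64e-21, against 0.39 with the edgeR quasi-likelihood test). The Log2FC of AP1AR-DT moved to 8.05 when control replicate 2 was left out and to 6.02 when control replicate 1 was. A pair of reads was worth about 4 counts in this table. A count of 0 is compatible with up to 3 pairs, so 12 counts was taken as the limit of detection, which covers counting error only. AP1AR-DT in control 1 lay under it.

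None of the 9 catecholamine and granin genes differed between AP1AR-DT_OE and control beyond the spread between libraries. The DESeq2 Wald test called 0 of the 9 at an adjusted p under 0.05, where 0.137% of the 24014 genes tested were called, 0.0833% higher and 0.0541% lower in AP1AR-DT_OE. At an unadjusted p under 0.05 it was again 0 of 9, against 0.816% of all genes. The edgeR quasi-likelihood test called 0 genes of the whole table at an adjusted p under 0.05. Its 0 of 9 at that threshold therefore says nothing about these genes. At an unadjusted p under 0.05 that test gave 0 of 9, with 112 over the genes that edgeR's filter of low counts kept. The number kept is not given here and is not the 24014 above, so no share stands beside the 0 of 9. The unadjusted p-values in DESeq2 ran from 0.268 for SLC6A2 to 0.996 for CHGA, and the adjusted p rounded to 1 for each. In all 9 genes the Log2FC between groups was smaller than the larger of the log2 differences between 2 libraries of the same group. SLC18A1 met this narrowly, at 0.61 against 0.63 without sign. The share of all genes that meet it is not given here, so this count does not set the 9 apart from other genes. Normalized read counts were counts divided by the DESeq2 size factor of the library. Among the 6 members whose mean over the 4 libraries reached 50 on this scale, 5 had a Log2FC above 0 and 1 below. Their median Log2FC was 0.10, beside -0.02 over the 13298 genes at that level. None of these 6 had groups that did not overlap, against 9.45% of genes at that level (5.11% higher and 4.35% lower in AP1AR-DT_OE). The median log2 ratio of the 6 was -0.03 between the libraries numbered 1 and 0.14 between those numbered 2.

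**Figure D1:**
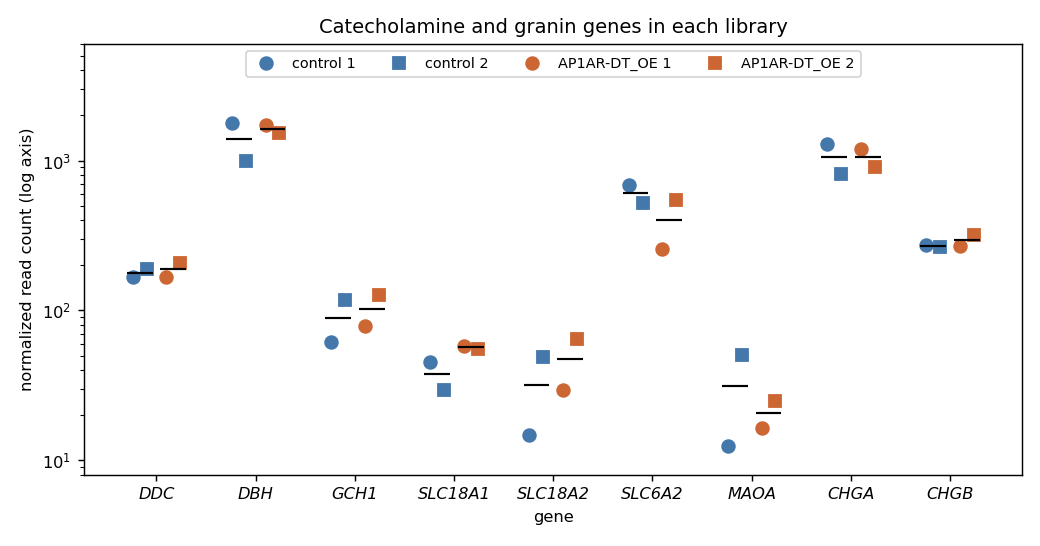
Normalized read count (log axis) of each gene in the 4 libraries; circles are libraries numbered 1, squares those numbered 2, blue is control, orange is AP1AR-DT_OE, and short black lines are group means (n = 2). SLC18A1 is the only one of the 9 genes in which both AP1AR-DT_OE libraries (58.1 and 55.6) lie outside the range of the controls (45.6 and 29.3).

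How large a change these libraries could have hidden is given by the 95% Wald intervals of the Log2FC. They were narrowest for the abundant genes: a fold between 0.525 and 1.91 for CHGA, between 0.613 and 2.24 for DBH and between 0.553 and 2.18 for CHGB. For DDC the fold lay between 0.499 and 2.21, and for GCH1 between 0.451 and 2.91. For SLC6A2 it lay between 0.322 and 1.37. The scarcest genes had the widest intervals on the log2 scale: 0.505 to 4.60 for SLC18A1, 0.401 to 5.43 for SLC18A2 and 0.147 to 2.92 for MAOA. A rise to a fold of 2 in AP1AR-DT_OE lay outside the interval for CHGA and SLC6A2, and a fall to 0.5 lay outside it for DBH, CHGA, CHGB and SLC18A1. CHGA was thus the sole gene whose interval held neither. Its limits, 0.525 and 1.91, lay close to 0.5 and 2, so smaller changes in either direction fit its interval too. The counts do not show that CHGA or any of the other 8 stayed alike. The lower limit of SLC18A1, 0.505, lay barely above 0.5, so for this gene the fall is not settled. As about 4 counts stood for a read pair, intervals of scarce genes may be too narrow. With counts divided by 4, SLC18A1 had a Log2FC of 0.57 and an unadjusted p of 0.59 (DESeq2 Wald test), against 0.455.

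**Figure D2:**
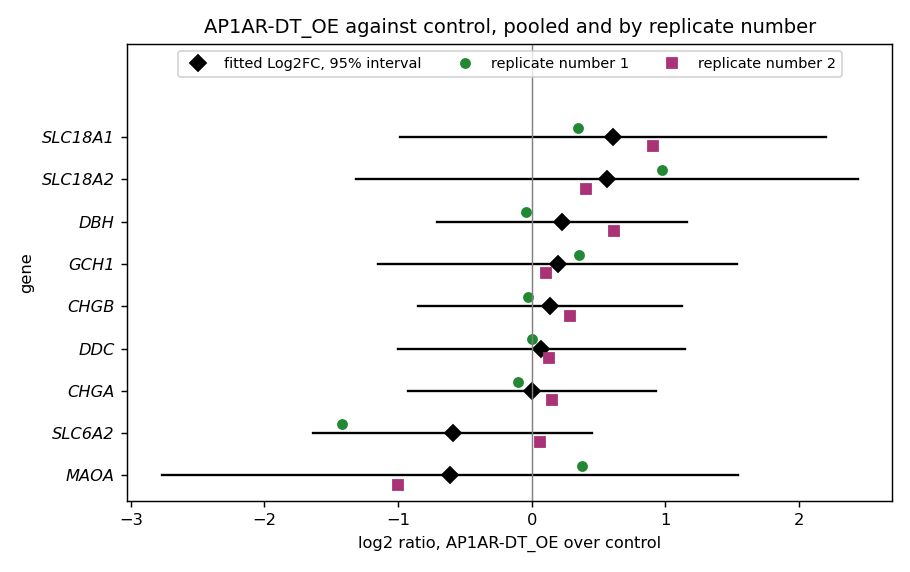
Log2 ratio of AP1AR-DT_OE over control for each gene; black diamonds are the fitted Log2FC with its 95% Wald interval (n = 2 per group), green circles the ratio between the libraries numbered 1 and purple squares that between the libraries numbered 2. All 9 intervals include 0, and the ratio has the same sign in both numbers for 4 genes.

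Of the synthesis enzymes analysed, which leave out TH, DBH had by far the most reads. Its normalized read counts were 1782 in control 1, 997 in control 2, 1729 in AP1AR-DT_OE 1 and 1528 in AP1AR-DT_OE 2. Control 2 was low and the other 3 libraries lay close together, so the groups overlapped. The control mean was 1390 ± 555 and the AP1AR-DT_OE mean 1628 ± 142 (SD, n = 2; Log2FC = 0.23, SE = 0.48, unadjusted p = 0.632). Without control replicate 2 the Log2FC was -0.12, and without control replicate 1 it was 0.71. DBH (ENSG00000123454; chromosome 9, 133636363 to 133659329, GRCh38 as the table gives it) is overlapped by the antisense RNA DBH-AS1, and the strand setting of the counting is not stated, so reads of the antisense gene could not be told apart.

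DDC (ENSG00000132437; chromosome 7, 50458436 to 50565405), which makes dopamine from DOPA, varied least of the synthesis genes analysed. It had 167 normalized counts in control 1, 190 in control 2, 168 in AP1AR-DT_OE 1 and 207 in AP1AR-DT_OE 2. The means were 179 ± 15.8 and 188 ± 28.0 (SD, n = 2; Log2FC = 0.07, SE = 0.55, unadjusted p = 0.897), and the libraries numbered 2 were the higher ones in both groups.

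GCH1 (ENSG00000131979; chromosome 14, 54842008 to 54902826) is the entry enzyme of tetrahydrobiopterin synthesis. Control 1 held 61.5 normalized counts, control 2 held 117, AP1AR-DT_OE 1 held 79.0 and AP1AR-DT_OE 2 held 126. Again the libraries numbered 2 were higher, by 1.90-fold in control and 1.59-fold in AP1AR-DT_OE, while the group means were 89.4 ± 39.4 and 103 ± 33.3 (SD, n = 2; Log2FC = 0.19, SE = 0.69, unadjusted p = 0.777). The difference between the numbers was larger than that between the groups.

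The other genes that supply the cofactors of these enzymes were read from a fixed list of 9, all with a row. None was called in either direction by DESeq2, and none had an unadjusted p under 0.05 in that test. Their median Log2FC was 0.03, and the highest was 0.35 (GCHFR, the feedback regulator of GCH1, SE = 0.64). SPR, which completes tetrahydrobiopterin, averaged 2222 ± 753 normalized counts without and 2244 ± 301 with the overexpression. CYB561, the granule cytochrome that regenerates the ascorbate used by DBH, had 6639 ± 1486 and 6670 ± 1111 (SD, n = 2 throughout).

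Among the vesicular transporters, SLC18A1 (VMAT1, the form typical of chromaffin cells; ENSG00000036565, chromosome 8) had 40 counts in control 1, 38 in control 2, 53 in AP1AR-DT_OE 1 and 56 in AP1AR-DT_OE 2. In normalized read counts this was 45.6, 29.3, 58.1 and 55.6, so both AP1AR-DT_OE libraries lay above both controls. Of all 24014 genes, 13.7% had groups that did not overlap, 6.59% in this direction and 7.14% in the other, beside 1 of the 9 members. The means were 37.4 ± 11.5 and 56.9 ± 1.80 (SD, n = 2; Log2FC = 0.61, SE = 0.81, unadjusted p = 0.455), and the ratio was 0.35 on the log2 scale in number 1 and 0.91 in number 2. The Log2FC stayed above 0 with any 1 library left out, between 0.33 and 0.95, and no such fit called it.

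SLC18A2 (VMAT2, the neuronal form; ENSG00000165646, chromosome 10, 117241093 to 117279430) was scarcer and more scattered. Its 13 counts in control 1 lay just over the limit of 12 counts, beside 63 in control 2, 27 in AP1AR-DT_OE 1 and 65 in AP1AR-DT_OE 2. In normalized counts the controls were at 14.8 and 48.6 and AP1AR-DT_OE at 29.6 and 64.5. The libraries numbered 2 were 3.21-fold and 2.16-fold higher than those numbered 1, and the groups overlapped (Log2FC = 0.56, SE = 0.96, unadjusted p = 0.558). Without control replicate 1 the Log2FC was -0.05 and without control replicate 2 it was 1.68. PDZD8 overlaps the gene on the opposite strand.

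The noradrenaline transporter SLC6A2 (ENSG00000103546; chromosome 16, 55655988 to 55707645) had the smallest p of the 9 genes. Its normalized read counts were 689 in control 1, 524 in control 2, 258 in AP1AR-DT_OE 1 and 547 in AP1AR-DT_OE 2. A single library, AP1AR-DT_OE 1, was low, and AP1AR-DT_OE 2 lay between the controls. The means were 606 ± 117 and 402 ± 204 (SD, n = 2; Log2FC = -0.59, SE = 0.53, unadjusted p = 0.268). The ratio was -1.42 on the log2 scale in number 1 and 0.06 in number 2. Without AP1AR-DT_OE replicate 1 the Log2FC was -0.15, and without AP1AR-DT_OE replicate 2 it was -1.25 (unadjusted p = 0.0778, DESeq2), where the lone library is assumed to vary like the controls.

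Of 7 other transporters of amines or acetylcholine on the fixed list, 2 had a row, and neither was called. SLC18A3, the vesicular acetylcholine transporter, averaged 1397 ± 520 normalized counts without and 1141 ± 27.5 with the overexpression (SD, n = 2; Log2FC = -0.29). SLC29A4, a low-affinity monoamine transporter of the plasma membrane, had a Log2FC of -0.07.

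Monoamine oxidase A was the scarcest member. MAOA (ENSG00000189221; chromosome X, 43654907 to 43746824) had 11 counts in control 1, under the limit of 12, with 65 in control 2, 15 in AP1AR-DT_OE 1 and 25 in AP1AR-DT_OE 2. Control 2 stood apart from the other 3 libraries. In normalized counts the values were 12.5, 50.1, 16.4 and 24.8, the means were 31.3 ± 26.6 and 20.6 ± 5.91 (SD, n = 2), and the Log2FC of -0.61 (SE = 1.10, unadjusted p = 0.579) turned to 0.73 without control replicate 2. The signs within the numbers were opposite, 0.38 in number 1 and -1.0 in number 2.

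The other enzymes of conversion and breakdown numbered 9 on the fixed list, 8 of them with a row and 6 with a mean of 50 or more normalized counts. None was called by DESeq2 and none had an unadjusted p under 0.05 in that test. Those 6 had a Log2FC between -0.35 and 0.12, with a median of -0.13. The lowest was MAOB, the other monoamine oxidase, with 133 ± 0.943 and 104 ± 11.1 normalized counts (SD, n = 2; SE = 0.60). Both AP1AR-DT_OE libraries of MAOB, at 96.5 and 112, were below the controls at 132 and 133, which held for 1 of the 6 and for 4.35% of all genes at that level. The highest Log2FC was that of AKR1B1, the aldose reductase (SE = 0.44).

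The granins had close group means. CHGA (ENSG00000100604; chromosome 14, 92923150 to 92935285), the chromogranin measured in blood as a marker of neuroendocrine tumours, held 1284 normalized counts in control 1, 817 in control 2, 1193 in AP1AR-DT_OE 1 and 910 in AP1AR-DT_OE 2. The libraries numbered 1 were the higher ones in both groups. The means of 1050 ± 330 and 1052 ± 200 differed by a Log2FC of 0.003 (SD, n = 2; SE = 0.48, unadjusted p = 0.996).

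CHGB (ENSG00000089199; chromosome 20, 5911510 to 5925353) held 272 normalized counts in control 1, 263 in control 2, 268 in AP1AR-DT_OE 1 and 321 in AP1AR-DT_OE 2. A single library, AP1AR-DT_OE 2, was higher than the rest. The Log2FC was 0.14 (SE = 0.51, unadjusted p = 0.787) and -0.01 without AP1AR-DT_OE replicate 2.

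Of 20 other genes of the dense-core granule and its release, 19 had a row and 16 reached a mean of 50 normalized counts. DESeq2 called 0 of them, with 0 at an unadjusted p under 0.05. In 7 of the 16 the Log2FC was above 0 and in 9 below, with a median of -0.02. The lowest was SYT4, a vesicle synaptotagmin, at -0.75 (SE = 0.70). The highest was STX1A, a syntaxin of the plasma membrane, at 0.76 (SE = 0.57), with 276 counts in control 1 and 1292, 1132 and 991 in control 2, AP1AR-DT_OE 1 and AP1AR-DT_OE 2. STX1A was called without control replicate 2 (Log2FC = 1.83, DESeq2 adjusted p = 0.0194) and under no other alternative, where its adjusted p was at least 0.9995.

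To compare the genes with each other, normalized read counts were divided by the length of the longest transcript in kilobases. On this scale DBH stood at 550 (between 363 and 649 over the 4 libraries) and CHGA at 530 (411 to 647), above 86.5% and 86.1% of all genes. Their ranges overlapped, so the order of the pair is not settled. CHGB followed at 114 (107 to 130), apart from both. DDC at 91.0 (83.2 to 103) and SLC6A2 at 71.5 (36.5 to 97.7) overlapped each other, as did SLC6A2 and GCH1 at 32.9 (21.1 to 43.2). SLC18A1 at 15.9 (9.92 to 19.7) lay below GCH1 and overlapped SLC18A2 at 9.55 (3.59 to 15.6), which in turn overlapped MAOA at 3.09 (1.49 to 5.96). With the union of all exons as the length, the values of CHGA, CHGB, DDC and SLC6A2 were 348, 63.2, 59.4 and 62.7, so DDC and SLC6A2 changed places.

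**Figure D3:**
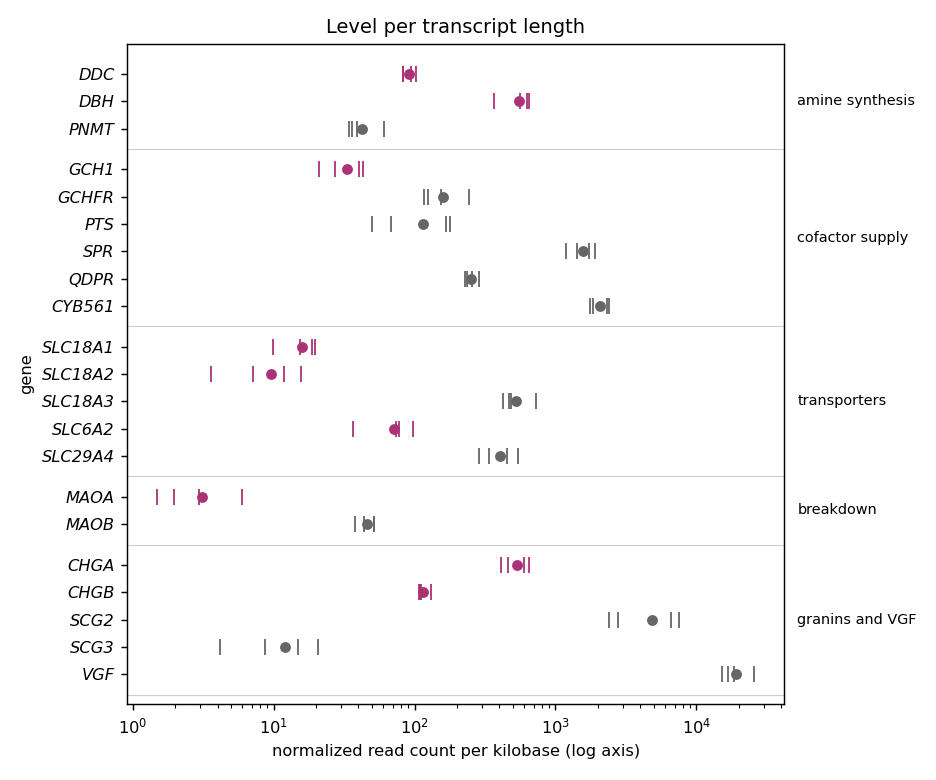
Normalized read count per kilobase of the longest transcript (log axis) for the catecholamine and granin genes (purple) and other genes of the same steps (grey); ticks are the 4 libraries and dots their mean. DBH and CHGA lead the purple genes at 550 and 530, and MAOA is last at 3.09.

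Within each step the members and their partners differed widely in level. Per kilobase, MAOB stood at 46.1 and MAOA at 3.09. The vesicular acetylcholine transporter SLC18A3 stood at 526, above SLC18A1 and SLC18A2. In cofactor supply, CYB561 stood at 2080.0, SPR at 1559 and GCH1 at 32.9. PNMT, which turns noradrenaline into adrenaline, stood at 42.6 against 550 for DBH. The granin-like precursors SCG2 and VGF, at 4834 and 19099, exceeded CHGA and CHGB, while SCG3 stood at 12.1. MAOB, SPR, CYB561, PNMT, SCG2, SCG3 and VGF are given here for their level and were chosen after their values were seen.

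The 250 bases before the start of the gene are shown for DBH and CHGA, the most abundant members, and for SLC18A2, a scarce one. Of the 5 members whose windows were read, these hold the core of the cyclic AMP response element. The windows are from RefSeq on GRCh38.p14, plus strand, 5′ to 3′, and capitals mark TGACG on either strand. They are DBH at chr9:133636113-133636362, CHGA at chr14:92922900-92923149 and SLC18A2 at chr10:117240864-117241113. The RefSeq start of SLC18A2, from which its window is counted, lies slightly downstream of the start that the table gives.
DBH: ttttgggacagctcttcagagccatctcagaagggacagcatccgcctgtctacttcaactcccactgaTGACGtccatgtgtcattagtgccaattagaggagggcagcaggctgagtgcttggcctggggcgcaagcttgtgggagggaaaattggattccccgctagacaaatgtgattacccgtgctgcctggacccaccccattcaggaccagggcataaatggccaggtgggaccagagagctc
CHGA: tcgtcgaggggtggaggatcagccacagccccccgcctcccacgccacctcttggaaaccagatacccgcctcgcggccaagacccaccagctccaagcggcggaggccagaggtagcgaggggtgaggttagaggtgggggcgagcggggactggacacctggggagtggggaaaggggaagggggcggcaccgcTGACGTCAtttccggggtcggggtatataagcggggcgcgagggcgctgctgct
SLC18A2: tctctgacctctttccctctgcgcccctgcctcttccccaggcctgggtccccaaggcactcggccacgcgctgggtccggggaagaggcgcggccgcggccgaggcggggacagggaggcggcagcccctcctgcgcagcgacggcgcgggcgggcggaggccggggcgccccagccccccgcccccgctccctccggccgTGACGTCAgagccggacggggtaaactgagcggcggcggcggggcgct
CHGA holds the whole palindrome TGACGTCA 54 bases before its start and SLC18A2 holds it 48 bases before, while DBH holds TGACG alone, on the plus strand, 181 bases before. Of 35116 RefSeq windows of this length, 1.65% hold TGACGTCA and 21.2% hold TGACG on either strand, the palindrome being counted in both. The homeodomain core ATTA, on either strand, occurred 3 times in the window of DBH, at 166, 156 and 71 bases before the start, and not in those of CHGA and SLC18A2, against 47.4% of all windows. SLC18A1 was left out of this step. RefSeq windows were also read for DDC, with 2 starts, and MAOA. None of these held TGACG, and all held ATTA, 4 times and 1 time at the starts of DDC and 1 time in MAOA. These are matches of letters. CHGA and SLC18A2, with the same palindrome, differed in level by 530 against 9.55 normalized counts per kilobase. Whether the palindrome plays a part in either level was not tested.

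The difference between libraries of 1 group followed base composition. GC content, taken over the longest transcript, was related inversely to the log2 ratio between the controls (number 2 over number 1) across 13284 genes averaging 50 or more normalized counts (Spearman's rho = -0.77), and likewise in AP1AR-DT_OE (rho = -0.65). Genes share these libraries and are not independent, so no test is attached. The members at both ends of the GC range had the sign of this trend in both groups. CHGA and DBH, with 62.2% and 61.5% GC, were lower in the libraries numbered 2, by -0.65 and -0.84 on the log2 scale in control and by -0.39 and -0.18 in AP1AR-DT_OE. MAOA, SLC18A2 and GCH1, with 39.4%, 42.9% and 43.0% GC, were higher in them, by 1.96, 1.68 and 0.93 in control and by 0.58, 1.11 and 0.67 in AP1AR-DT_OE. The numbers are not said in the labels to mark a batch, and what set them apart was not tested.

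**Figure D4:**
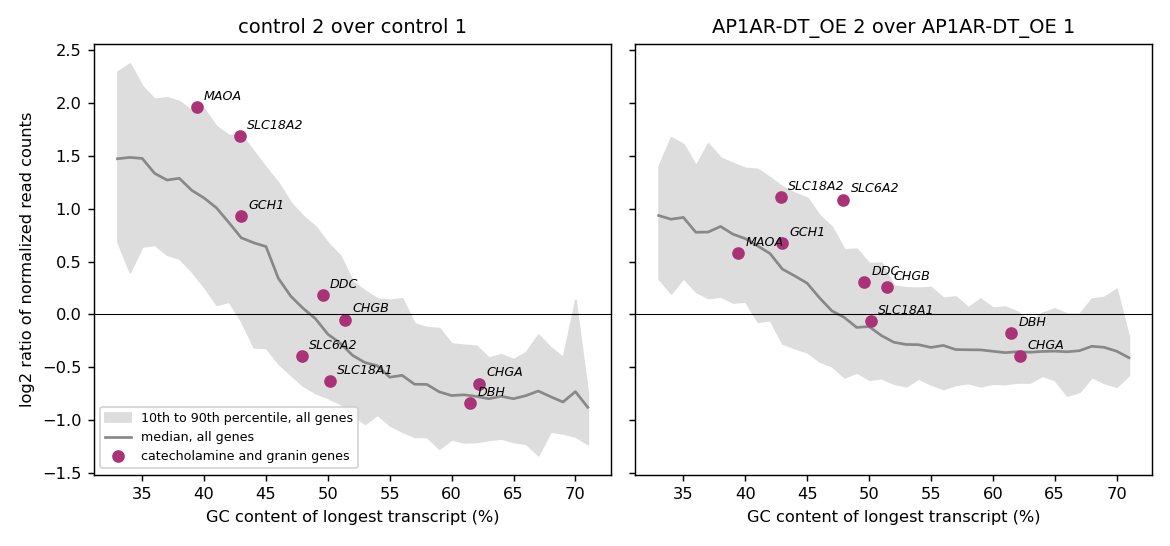
Log2 ratio of the library numbered 2 over that numbered 1, in control (left) and AP1AR-DT_OE (right), against the GC content of the longest transcript (%); the grey line and band are the median and the 10th to 90th percentile of genes averaging 50 or more, and purple points are the catecholamine and granin genes. SLC6A2 lies above the band on the right, at 1.08, and inside it on the left, at -0.40.

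SLC6A2, with 47.9% GC, did not follow the genes of like GC content in AP1AR-DT_OE. Its log2 ratio of AP1AR-DT_OE 2 over AP1AR-DT_OE 1 was 1.08, where the median of 948 genes within 1 percentage point of GC was -0.04, and it exceeded 97.8% of them. In control its ratio of -0.40 exceeded 20.4% of those genes. Its ratio of AP1AR-DT_OE 1 over control 1 was lower than in all but 0.527% of them. Other members also lay near an end among genes of like GC. In the ratio of AP1AR-DT_OE 2 over control 2, SLC18A1 exceeded 98.7% and SLC18A2 97.7% of such genes, and MAOA 1.8%.

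With the GC trend taken out of each library, the groups of DBH and GCH1 no longer overlapped and those of SLC18A1 still did not, each higher in AP1AR-DT_OE. That is 3 of 9, against 19.6% of all genes in either direction and 9.77% in this direction. DBH was then at 1415 and 1337 in the controls against 1526 and 1700.0 in AP1AR-DT_OE, a Log2FC of 0.23 (SE = 0.25, unadjusted p = 0.36, DESeq2). GCH1 was at 79.9 and 89.3 against 95.2 and 111 (Log2FC = 0.28, SE = 0.48, unadjusted p = 0.56). SLC18A1 was at 43.9 and 31.6 against 55.9 and 58.2 (Log2FC = 0.60, SE = 0.64, unadjusted p = 0.349). None of the 9 was called in this fit.

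The identity of the cells was read from markers. Of 7 noradrenergic markers 6 had a row, DBH and transcription factors such as HAND2 and GATA3 among them, and all 6 exceeded the limit of 12 counts in every library. Their normalized counts summed to 29529 in control 1, 23484 in control 2, 28334 in AP1AR-DT_OE 1 and 25862 in AP1AR-DT_OE 2. All 8 mesenchymal markers also exceeded the limit in every library, with sums of 159242 and 123944 against 153440 and 133574. Of the Schwann and glial markers, S100B, a calcium-binding protein, had between 6 and 17 counts in a library, and none of the 4 genes with a row on the wider list of these cells was called. TPH1 was the serotonergic marker with a row, at 0 counts in 3 libraries and 4 in AP1AR-DT_OE 2. Of the cholinergic markers SLC18A3 was above the limit, while CHAT, the acetylcholine-synthesizing enzyme, had at most 2 counts in a library. GAD1, which makes GABA, was the GABAergic marker with a row, at 19 to 45 counts. FEV, a factor best known from serotonergic neurons, had 744 ± 246 and 759 ± 87.5 normalized counts (SD, n = 2), and ACHE, which breaks down acetylcholine, had a Log2FC of -0.20. These were the 2 genes of the 12 on the list of other transmitter identities with a mean of at least 50, and none of that list was called.

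No receptor for catecholamines and no transcription factor of the adrenergic state passed the test. Of 14 receptors 10 had a row and 6 a mean of at least 50, with Log2FC between -0.15 (DRD2) and 0.25 (ADRA1D). The adrenoceptors ADRA1D and ADRA1B stood at 1371 and 452 normalized counts, whereas ADRA1A, ADRA2A and ADRB1 lay at or under the limit of 12 counts in every library. Of 12 adrenergic factors 11 had a row and 9 a mean of at least 50, with Log2FC between -0.16 (TFAP2B) and 0.33 (HAND1) and a median of 0.02. DESeq2 called 0 genes of either list, and 0 had an unadjusted p under 0.05 in that test.

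Among 12 mesenchymal-state genes, 9 had a Log2FC below 0 and 3 above, with a median of -0.08 and a maximum of 0.12 (VIM, an intermediate filament). PRRX1, a transcription factor of the mesenchymal state, was the sole gene of all the lists with an unadjusted p under 0.05 in DESeq2. Control 1 held 2432 counts, control 2 held 14724, AP1AR-DT_OE 1 held 1131 and AP1AR-DT_OE 2 held 2263. Both AP1AR-DT_OE libraries were below both controls, and control 2 stood far above the rest. The Log2FC was -2.02 (SE = 0.61, DESeq2 adjusted p = 0.431), -1.16 in number 1 and -2.34 in number 2. It was called with the replicate block (adjusted p = 1.1e-07) and with GC correction (adjusted p = 0.00111). Without control replicate 1 it was called at -2.71, and without control replicate 2 the Log2FC was -0.66 (adjusted p = 0.999). In bulk RNA, fewer cells of a state and less RNA per cell cannot be told apart. Whether PRRX1 plays a part in the values of the catecholamine genes was not tested.

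The genes most like DBH over the 4 libraries were found by the root-mean-square difference in centred log2 normalized count among 13292 genes. They were RP11-169L17.5 at 0.02, DDX28, an RNA helicase, at 0.03 and MANEAL at 0.03. With 4 libraries such likeness is common, and 286 genes lay within 0.1 of DBH.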

How the data were processed

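RNA-seq of SK-N-SH cells, 2 control and 2 AP1AR-DT_OE libraries, was analysed from the deposited table of read counts per gene. The authors aligned reads to hg19 with HISAT2 and derived these counts from StringTie output with its Python script, per the paper's methods; the submitters' processing notes list TopHat2 2.0.4, HTSeq, Cuffdiff and edgeR 2.6.12 instead. The annotation and the strand setting are not given in the sources used here. The counts are whole numbers with no normalization. Values piled up at 4 (3287 entries, against 2136 at 3 and 1509 at 5), hence about 4 counts per read pair. The gene positions in the table are GRCh38. The deposited columns with the authors' own DESeq2 and edgeR comparisons (means, fold changes, statistics and p-values) were not used.

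Counts were fitted over all 24014 genes with DESeq2 1.42.0 in R 4.3.3 (median-of-ratios size factors, two-sided Wald test, no covariate, Benjamini-Hochberg adjustment, default independent filtering), since the study used DESeq2. Means are given ± SD. Ratios within a replicate number are of log2 (normalized count + 0.5). The alternatives were edgeR 4.0.16 (quasi-likelihood, TMM) with and without the replicate number as a block, TMM factors, a likelihood-ratio test, the block in DESeq2, fits without independent filtering or restricted to genes reaching 10 counts in 2 or more libraries, GC correction (lowess, span 0.3) with and without the block, counts divided by 4, and each library left out. Length, GC content and overlaps came from GENCODE v44 mapped to GRCh37. Windows of 5 of the members were read from the RefSeq promoter table, and SLC18A1, on chromosome 8, was left out of that step. The procedure was tested on simulated data.

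The members and lists were chosen with earlier results of these data known. Named genes were all members, AP1AR-DT, the identity markers, the genes of each list with the highest and lowest Log2FC at a mean normalized count of at least 50 or an unadjusted p under 0.05, and the 3 genes most like the most abundant member. Some genes that this rule or the lists select are not reported here.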

Additional observations from a re-analysis of the deposited data

How the results depend on the processing

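No catecholamine or granin gene was called, and none had an unadjusted p under 0.05, under any of the 10 alternatives or with any 1 of the 4 libraries left out. A fit with a library left out assumes that the lone library of its group varies like the other group. The median Log2FC of the 6 more abundant members, 0.10, lay between 0.08 and 0.11 under the alternatives and between -0.0574 and 0.17 with a library left out, the lowest without AP1AR-DT_OE replicate 2. The Log2FC of CHGA, 0.003, changed sign with GC correction (-0.0345), GC correction plus replicate block (-0.0337) and TMM factors (-0.00338). With a library left out it ran from -0.28 to 0.36 for CHGA, -0.0118 to 0.26 for CHGB, -0.12 to 0.71 for DBH, -0.10 to 0.21 for DDC, -0.20 to 0.75 for GCH1, -1.28 to 0.73 for MAOA and -0.12 to 1.68 for SLC18A2. SLC6A2 (-1.25 to -0.15) and SLC18A1 (0.33 to 0.95) kept their sign in those fits and in the 10 alternatives. The smallest unadjusted p of SLC6A2 was 0.0531. Members whose groups did not overlap numbered 1, and 3 with GC correction with or without the replicate block; with a library left out this was not computed.

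Over all genes 33 were called, 0 in edgeR's quasi-likelihood fit (unadjusted calls: 112, against 196), 15 with counts divided by 4 (110 unadjusted), 55 with GC correction and 60 when the replicate block was added to it. With a library left out it was 45 to 90 (197 to 507 unadjusted). Of the wider lists, mesenchymal genes gave 1 call in place of 0 (PRRX1) with replicate block, with the edgeR test and replicate block (437 unadjusted calls over all genes), with GC correction and with both. With a library left out, mesenchymal and dense-core granule genes each gave 0 to 1, the latter STX1A. The causes were not tested.

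The labels do not say that the replicate number pairs the libraries. Libraries with the same number deviated together from their group means (r = 0.46 across 13298 genes), as a hint from the data. The replicate block in DESeq2 called 37 genes and no member. Depth limits SLC18A2 and MAOA most, where a library held 13 and 11 counts, about 3 read pairs.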
